A study of Mus musculus with 4 samples.

Results

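Transcripts of 10 genes of cyclic AMP (cAMP) signalling were measured in mouse regulatory T cells. The genes encode the cyclic nucleotide phosphodiesterases Pde2a, Pde3b, Pde4a, Pde4b, Pde4d and Pde7a, the protein kinase A (PKA) subunit Prkar1a, the transcription factors Creb1 and Crem, and the prostaglandin E2 receptor Ptger4. They were chosen by name, with earlier results of these data known, and each symbol matched 1 of the 50600 annotated genes. The libraries, labelled as biological replicates 1 to 4, came from primary cells of strain C57BL/6NJ and formed 1 group. The labels gave 1 donor identifier for all 4, no sex and no age, linked a protocol for the differentiation of CD4 T cells, and did not say that each replicate came from a separate animal. Sample names inside the count tables describe the cells as activated and give 72 h. No untreated cells or other cell type stood beside them, so levels were compared between genes within libraries, and spread between libraries.

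Total counts on genes ranged from 51460018 to 121477975 per library. All 8 genes of the regulatory T cell list, Foxp3, Il2ra, Ctla4, Ikzf4, Tnfrsf18, Cd4, Cd3e and Trac, reached 1 TPM in every library. Together they held 5873 to 6379 TPM, with means of 448 TPM for Foxp3 and 124 TPM for Ikzf4. Cd4, Cd3e and Trac mark CD4 T cells at large, and activated T cells also express Il2ra, Ctla4 and Tnfrsf18. The sum is thus no measure of regulatory identity, and no list set other CD4 T cells apart. TPM here is the count per base of gene length, scaled so that every library sums alike. Of 33 markers in 7 lists of other cells (B cells, CD8 T cells, natural killer cells, macrophages, dendritic cells, granulocytes and mast cells, and stroma and endothelium), 7 reached 1 TPM in every library, with means of 11.5 TPM for Cd8b1, 4.51 TPM for Cd68, 4.51 TPM for Zbtb46, 3.34 TPM for Eomes, 3.14 TPM for Cd79b, 3.12 TPM for Epcam and 2.55 TPM for Adgre1. In the same lists 9 had 0 counts, Gzmk, Ncr1, Lyz2, Fcgr1, Siglech, S100a8, S100a9, Elane and Cdh5. The summed level of any 1 of these lists was at most 13.4 TPM, and the part of other cells in the levels below was not tested. In bulk RNA, fewer cells that express a gene and less RNA per cell cannot be told apart. Replicates 1 and 2 stood apart from the others in Xist, the noncoding RNA of the inactive X chromosome, with 173, 199, 0.592 and 0.758 TPM in replicates 1 to 4. The SDs and the fit of spread below were not adjusted for this split.

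Cyclic AMP is made by adenylyl cyclases when receptors such as the prostaglandin receptor EP4, the product of Ptger4, activate the stimulatory G protein. It releases the catalytic subunits of PKA from their regulatory subunits, and PKA phosphorylates CREB, which activates genes through the cAMP response element. Phosphodiesterases end the signal by cleaving the nucleotide. In T cells cAMP restrains activation through the antigen receptor. Mouse regulatory T cells hold much cAMP and pass it to other T cells, and Foxp3 is known to repress Pde3b in them.

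Windows around annotated RefSeq start sites, each from 250 bases upstream to 50 bases downstream on build GRCm38.p6 (mm10), were searched on both strands for the full cAMP response element TGACGTCA and for the shorter core site TGACGT, which the full element also contains on each strand. Of the 10 genes, 7 had at least 1 window, 21 in all, and Pde3b, Pde7a and Crem had none in the table used here. A full element lay in 1.79% of 32851 windows of all genes and a core site in 7.51%. Among the 7 genes, the full element was found at Prkar1a, in windows of 2 neighbouring start sites that share it, and core sites were also found at Pde4a and Pde4b, in 1 window each. These 3 upstream stretches are shown because they hold the letters that CREB and CREM, the products of members of the same set, are known to bind. Each is 250 bases long, on the plus strand, with the element or core site in capitals (at Pde4a and Pde4b it reads as its reverse complement):
Prkar1a, chr11:109650699-109650948: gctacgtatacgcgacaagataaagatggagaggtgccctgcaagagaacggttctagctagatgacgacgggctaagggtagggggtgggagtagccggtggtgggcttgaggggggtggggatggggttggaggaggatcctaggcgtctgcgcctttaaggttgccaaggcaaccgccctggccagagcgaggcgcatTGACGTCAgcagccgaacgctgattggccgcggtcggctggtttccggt
Pde4b, chr4:102421305-102421554: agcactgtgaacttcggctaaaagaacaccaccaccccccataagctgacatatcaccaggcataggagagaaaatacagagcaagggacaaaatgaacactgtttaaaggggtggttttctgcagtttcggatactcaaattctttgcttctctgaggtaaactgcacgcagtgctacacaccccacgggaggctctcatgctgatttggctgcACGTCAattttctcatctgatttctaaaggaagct
Pde4a, chr9:21183851-21184100: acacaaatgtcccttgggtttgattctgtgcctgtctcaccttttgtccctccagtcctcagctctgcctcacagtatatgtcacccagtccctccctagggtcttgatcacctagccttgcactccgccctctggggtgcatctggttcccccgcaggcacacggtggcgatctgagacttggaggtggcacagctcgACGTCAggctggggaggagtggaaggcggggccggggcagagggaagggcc

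The full element of Prkar1a (chromosome 11, 109650900 to 109650907) began 49 bases before the start site of the stretch shown. Counted from the neighbouring start site, it began at base 39 downstream. The core site of Pde4b (chromosome 4, 102421520 to 102421525) began 35 bases before its start site, and that of Pde4a (chromosome 9, 21184050 to 21184055) 51 bases before. Neither binding nor the start site in use was measured, since counts were summed over all transcripts of a gene. The remaining windows, such as those of Creb1, Pde4d and Ptger4, held neither motif.

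Ptger4, which encodes the Gs-coupled receptor EP4 (ENSMUSG00000039942.15, chromosome 15, 5206661 to 5244187, minus strand), was the most abundant prostaglandin E2 receptor transcript. It stood at 84.5, 73.0, 77.9 and 72.8 TPM in replicates 1 to 4, a mean of 77.0 ± 5.49 TPM (SD, n = 4). Replicates 1 and 3 were higher than replicates 2 and 4. Ptger2, which encodes the other Gs-coupled receptor EP2, stood at 10.4, 12.3, 9.90 and 12.8 TPM, with replicates 2 and 4 above replicates 1 and 3. Ptger4 exceeded Ptger2 by 2.76 ± 0.27 on the log2 scale in 4 of 4 libraries, a ratio of 6.76. With the length of the longest annotated transcript in place of all exons merged, the difference was 3.57 ± 0.27 and the ratio 11.9. It held 86.6% ± 2.05 (SD, n = 4) of the summed TPM of the 4 receptor genes, and Ptger3 and Ptger1, whose products act mainly through other G proteins, held 0.374% and 0.135%.

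**Figure D1:**
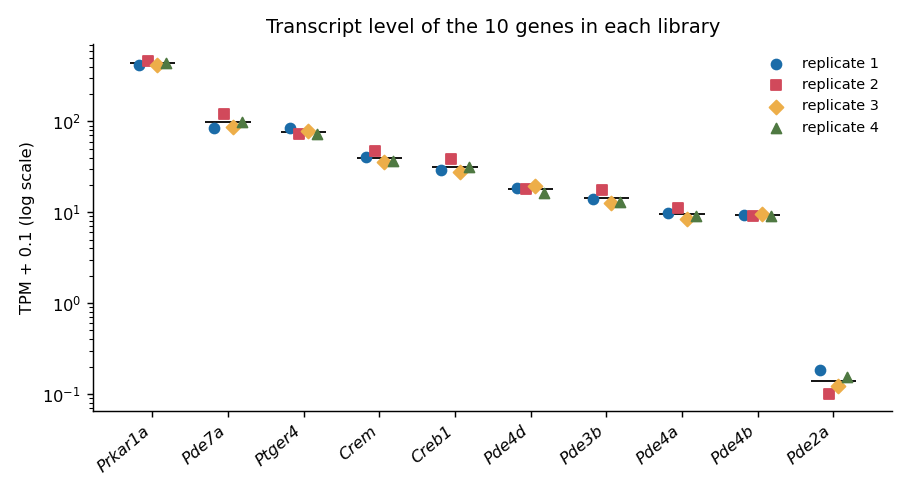
Transcript level of the 10 genes in each library. The vertical axis is TPM + 0.1 on a log scale, points are single libraries and lines are means. Prkar1a lies highest at a mean of 437 TPM and Pde2a lowest at 0.0395 TPM, and the points of 9 genes lie within a range of 1.41-fold or less.

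Pde7a was the leading phosphodiesterase transcript. It encodes a cAMP-specific enzyme that human T cells are known to induce on activation (ENSMUSG00000069094.12, chromosome 3, 19223108 to 19311322, minus strand). Replicates 1 to 4 had 84.5, 119, 86.3 and 99.4 TPM, a mean of 97.4 ± 16.1 TPM (SD, n = 4), with replicate 2 highest and replicates 1 and 3 close together. The highest library was 1.41-fold above the lowest. Pde7a lay above 90.1% of protein-coding genes in mean TPM. Its relative Pde7b had 7, 0, 4 and 1 counts in replicates 1 to 4.

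Pde3b, the phosphodiesterase that cyclic GMP inhibits and that Foxp3 is known to repress in mouse regulatory T cells, was readily detected. This gene (ENSMUSG00000030671.9, chromosome 7, 114415281 to 114539251) had 14.0, 17.4, 12.6 and 12.9 TPM in replicates 1 to 4, from 4569, 2865, 2533 and 1772 counts. Replicate 2 was again highest, and the mean was 14.2 ± 2.20 TPM (SD, n = 4). The other member of that family, Pde3a, had 4 and 3 counts in replicates 1 and 4 and 0 in replicates 2 and 3.

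The PDE4 enzymes are cAMP-specific and are the targets of rolipram and related drugs. Pde4d (ENSMUSG00000021699.17, chromosome 13, 108449948 to 109953461) was the highest of them at 18.2, 17.8, 19.4 and 16.1 TPM, a mean of 17.9 ± 1.37 TPM (SD, n = 4). Pde4a (ENSMUSG00000032177.17, chromosome 9, 21165714 to 21213248) had 9.75, 11.0, 8.26 and 8.94 TPM, a mean of 9.49 ± 1.19 TPM. For Pde4b, whose product acts in T cell receptor signalling (ENSMUSG00000028525.16, chromosome 4, 102087543 to 102607259), the values were 9.29, 8.97, 9.43 and 8.98 TPM, a mean of 9.17 ± 0.228 TPM. Pde4b varied least of all 9 detected genes, with a coefficient of variation of 2.49%. Pde4c, no member of the set, completed the family at 4.80 ± 0.778 TPM.

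Pde2a, whose enzyme is activated by cyclic GMP and cleaves both nucleotides, was near the limit of detection. It had 18, 0, 3 and 5 counts in replicates 1 to 4, which gave 0.0819, 0, 0.0221 and 0.0539 TPM, a mean of 0.0395 ± 0.0359 TPM (SD, n = 4). In replicate 2, a count of 0 allows up to 3 counts, or 0.0270 TPM, where such floors cover counting error only. The gene (ENSMUSG00000110195.1, chromosome 7, 101421691 to 101512827) shares 3955 of its 6149 exon bases, 64.3%, with Gm45837, an annotated gene on the same strand that had 9 counts over the 4 libraries. The headers show no setting that assigns a fragment to several genes, and by the counter's default, fragments on shared bases go to neither gene. Over the 2194 bases that Pde2a alone covers, the same counts gave 0.111 ± 0.101 TPM. Fragments lost on the shared bases were not counted here, so the level of Pde2a is uncertain. None of the other 9 genes shared an exon base with another gene on its strand.

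**Figure D2:**
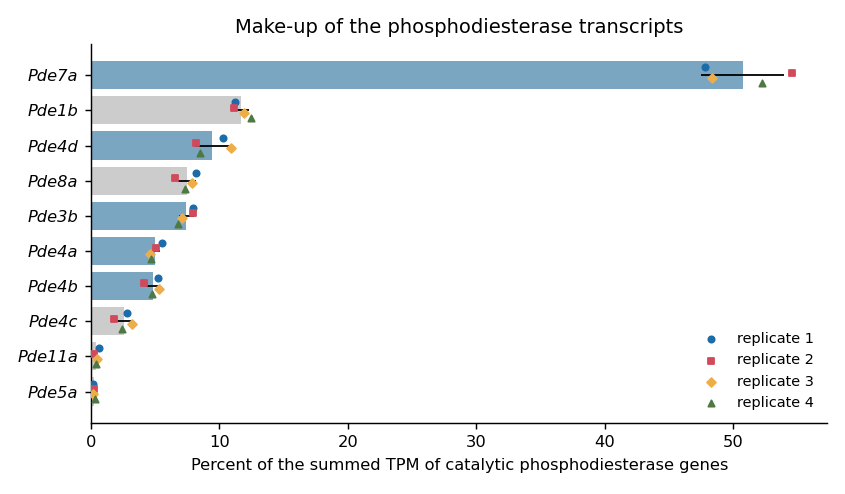
Share of single genes in the summed TPM of the 21 catalytic phosphodiesterase genes, for the 10 genes of highest share. The horizontal axis is percent, bars are means over 4 libraries with SD as error bars, points are single libraries, and blue marks members of the set. On average Pde7a takes 50.8%, and no other gene takes more than 11.7%.

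The 21 genes that encode catalytic phosphodiesterases were then summed. They held 191 ± 19.4 TPM in all (SD, n = 4). Pde7a made up 47.8%, 54.6%, 48.4% and 52.3% of this sum in replicates 1 to 4, a mean of 50.8% ± 3.24. The 4 PDE4 genes together held 23.9%, 19.1%, 24.0% and 20.3%, a mean of 21.8% ± 2.53. Replicates 2 and 4 were high in the share of Pde7a and low in that of PDE4. Both are parts of 1 sum, so a higher level of Pde7a lowers the share of PDE4 by construction. The opposite order of the shares is therefore no separate observation. Outside the 6 members, Pde1b, which encodes a calmodulin-activated enzyme, held 11.7% ± 0.629 and Pde8a, a cAMP-specific enzyme, 7.48% ± 0.695. Pde3b held 7.43% ± 0.600.

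Shares and differences between genes depend on the length used, which here was that of all exons of a gene merged. With the longest transcript annotated in GENCODE M21 as length, an alternative chosen after seeing the data, Pde4d stood at 40.6 ± 3.16 TPM and Pde4b at 17.9 ± 0.451 TPM (SD, n = 4). The share of PDE4 was then 36.2% and that of Pde7a 44.3%. Merged exons of Pde4d cover 12006 bases and its longest transcript 4207. Which transcripts the cells used was not measured.

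Within libraries, 10 pairs of genes were compared by the difference of log2(TPM + 0.1). Pde7a exceeded Pde4b by 3.38 ± 0.26 (SD, n = 4), Pde4d exceeded Pde4b by 0.96 ± 0.08 and Pde3b exceeded Pde4b by 0.62 ± 0.23, each in 4 of 4 libraries. Pde4a lay below Pde4d by a log2 difference of -0.91 ± 0.23 in 4 of 4 libraries. Pde4a and Pde4b were not told apart, with a difference of 0.04 ± 0.20, Pde4a being higher in 2 of 4 libraries (exact two-sided sign-flip p = 0.75). Pde2a lay below Pde4b by -6.09 ± 0.37 and below Pde3b by -6.71 ± 0.53 in 4 of 4 libraries. Both values depend on the pseudocount, and were -3.29 and -3.86 with a pseudocount of 1. The other 9 pairs each gave an exact two-sided p of 0.13, the smallest that 4 libraries allow, and 0.139 after Benjamini-Hochberg adjustment over the 10 pairs, so none could pass 0.05. With the longest transcript as length, Pde3b lay below Pde4b, by -0.20 ± 0.23, in 3 of 4 libraries, and Pde4a below Pde4b, by -0.53 ± 0.20. That length also moved Pde7a minus Pde4b to 2.39 ± 0.26, so the ratio of their levels was 5.25 in place of 10.4. Pde4a minus Pde4d became -1.71 ± 0.23 and Pde2a minus Pde4b -6.99 ± 0.42.

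**Figure D3:**
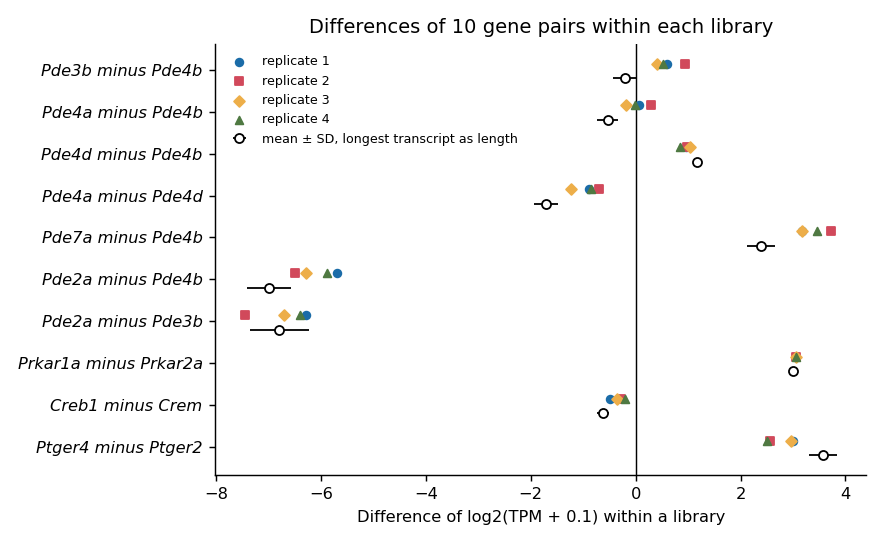
Differences of log2(TPM + 0.1) within each library for 10 pairs of genes, the first named minus the second. Coloured points are single libraries with merged exon length, and open circles with bars are the mean and SD with the longest annotated transcript as length. Prkar1a minus Prkar2a is tight at 3.06 ± 0.01, and Pde3b minus Pde4b and Pde4a minus Pde4b change side with the length.

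Prkar1a, the regulatory subunit RI alpha that holds PKA inactive until cAMP binds (ENSMUSG00000020612.16, chromosome 11, 109649405 to 109669656), was the most abundant of the 10 genes. It stood at 419, 466, 421 and 442 TPM in replicates 1 to 4, a mean of 437 ± 22.1 TPM (SD, n = 4), and above 98.6% of protein-coding genes. Prkar2a, which encodes the subunit RII alpha, was at 50.4, 55.7, 50.2 and 52.9 TPM. Prkar1a exceeded it by 3.05, 3.06, 3.07 and 3.06 on the log2 scale in replicates 1 to 4, a mean of 3.06 ± 0.01 (exact two-sided sign-flip p = 0.13, 0.139 adjusted). Both genes had replicates 2 and 4 above replicates 1 and 3, and their difference barely moved. Prkar1a held 88.7% ± 0.0409 of the summed TPM of the 4 regulatory subunit genes. The regulatory genes summed to 493 ± 24.7 TPM and the catalytic genes Prkaca and Prkacb to 188 ± 4.27 TPM, a ratio of 2.62 ± 0.120. This ratio rests on merged exon length, and its SD does not cover the choice of length. Prkacb had more counts than Prkaca in every library, 14841 against 12819 in replicate 1, over 8772 merged bases against 2488. No ratio with the longest transcript as length is given here.

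Among the transcription factors, Creb1 encodes CREB, which PKA phosphorylates, and Crem encodes a related factor whose short product ICER represses cAMP-responsive genes. Creb1 (ENSMUSG00000025958.14, chromosome 1, 64532645 to 64604548) had 28.9, 38.3, 27.9 and 31.4 TPM in replicates 1 to 4, a mean of 31.6 ± 4.70 TPM (SD, n = 4). Crem (ENSMUSG00000063889.16, chromosome 18, 3266048 to 3337748, minus strand) had 40.4, 46.7, 35.6 and 36.3 TPM, a mean of 39.8 ± 5.11 TPM. Replicate 2 was highest and replicate 3 lowest in both. Creb1 lay below Crem by a log2 difference of -0.33 ± 0.12 in 4 of 4 libraries (exact two-sided sign-flip p = 0.13, 0.139 adjusted). Activator and repressor transcripts of Crem, which has 32 protein-coding transcripts in GENCODE M21, were counted together, so ICER was not measured apart. With the longest transcript as length, Crem stood at 63.5 ± 8.24 TPM and Creb1 at 41.3 ± 6.18 TPM (SD, n = 4), and their log2 difference was -0.62 ± 0.12.

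In order of mean TPM the genes ran Prkar1a, Pde7a, Ptger4, Crem, Creb1, Pde4d, Pde3b, Pde4a, Pde4b and Pde2a. Of the 9 neighbours in this order, 8 kept it in all 4 libraries, and Pde4a and Pde4b did not. The gap between Pde7a and Ptger4 was 0.33 ± 0.32 on the log2 scale, the least certain of those that did. In replicate 1 both genes stood at 84.5 TPM, so that library hardly told them apart. With the longest transcript as length, Ptger4 (108 TPM) stood above Pde7a (95.2 TPM), and Pde4b (17.9 TPM) above Pde3b (15.7 TPM) and Pde4a (12.4 TPM), while the other places were the same. In all, 9 of the 10 genes reached 1 TPM in every library, against 48.9% of 21764 protein-coding genes. The median mean level of all 10, Pde2a included, was 24.8 TPM. Of the 9 that reached 1 TPM in every library, the middle one was Creb1 at 31.6 TPM. The median of the 10640 protein-coding genes that did so was close to that, at 32.5 TPM. Apart from Prkar1a and Pde7a, the members lay above 87.7% (Ptger4) to 60.8% (Pde4b) of protein-coding genes in mean TPM, and Pde2a above 37.9%.

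**Figure D4:**
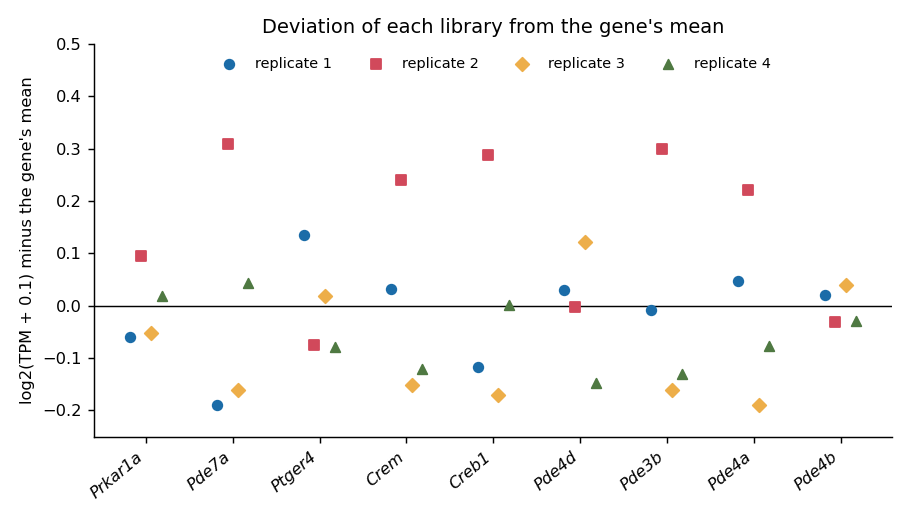
Deviation of each library from the gene's mean for the 9 genes that passed the filter on low counts. The vertical axis is log2(TPM + 0.1) minus the mean over the 4 libraries of that gene, and points are libraries. Replicate 2 is highest for Prkar1a, Pde7a, Crem, Creb1, Pde3b and Pde4a and at or below the mean for Ptger4, Pde4d and Pde4b.

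Spread between libraries was examined with a fit over 13625 genes, which compared the quasi-likelihood dispersion of each gene with that of genes of like abundance. It found 1 gene, 0.00734% of those tested, at an adjusted p under 0.05, and 0 of the 9 tested members. Pde2a did not pass the filter on low counts. The lowest adjusted p among the members was 0.965 (edgeR quasi-likelihood dispersion test with Benjamini-Hochberg adjustment), shared by Pde7a, Creb1, Pde3b, Crem and Ptger4. Without adjustment 1 member, Pde7a, had a p under 0.05, at 0.0345, against 4.7% of all genes tested. DESeq2 marked 43 of 13625 genes, 0.316%, as dispersion outliers, and 0 of the 9 members.

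Coefficients of variation of the 9 members ran from 2.49% for Pde4b to 16.5% for Pde7a, with a median of 12.5% against 9.65% over all genes tested. The dispersion was above its prior in 7 of the 9, against 45.2% of all genes tested. Prkar1a and Pde4b were the exceptions, with log2 ratios of -1.90 and -1.78, and Pde7a was at the other end with 2.42, followed by Creb1 with 2.02. Replicate 2 was the highest library for 6 of the 9, Pde3b, Pde4a, Pde7a, Prkar1a, Creb1 and Crem, against 41.8% of all genes tested. Replicate 3 was the lowest for 4 of the 9, Pde3b, Pde4a, Creb1 and Crem, against 31.3% of all genes tested. The part of these libraries in the spread was not tested.

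**Figure D5:**
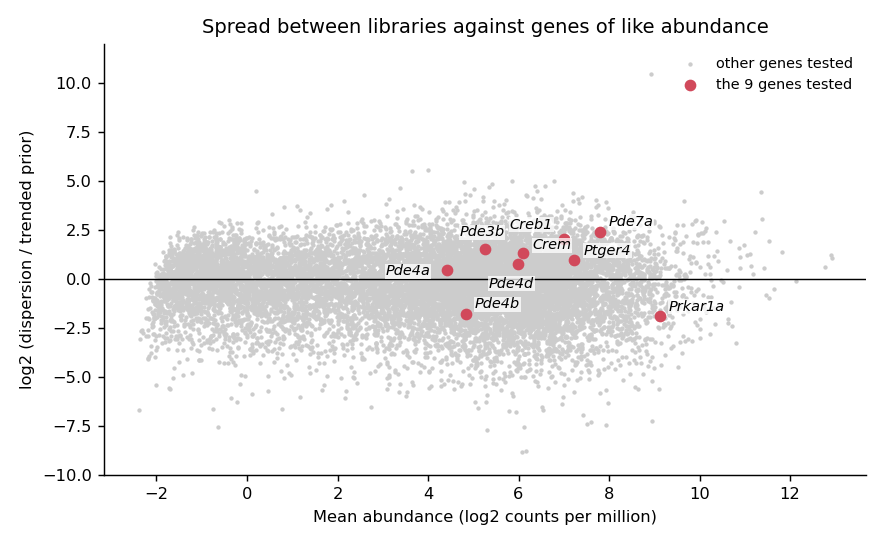
Spread between libraries against abundance for 13625 genes. The horizontal axis is log2 CPM, a scaled count, the vertical axis the log2 ratio of each gene's dispersion to the trended prior, grey points are all genes tested and red points the 9 members tested. The members lie inside the cloud, from -1.90 for Prkar1a to 2.42 for Pde7a.

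The remaining genes of the pathway were described by 9 lists of 110 genes, of which 61 reached 1 TPM in every library. Among all 21764 protein-coding genes 48.9% did so, and the counts per list below stand beside that same share. Of these 110, 73 passed the filter on low counts and 0 were called in the test of spread, against 0.00734% of all genes tested. An unadjusted p under 0.05 was found for 4 of the 73, against 4.7% of all genes tested. Upstream of cAMP, 4 of 10 adenylyl cyclases reached 1 TPM. Adcy7, the cyclase known to predominate in blood cells, stood at 175, 202, 177 and 198 TPM in replicates 1 to 4 and held 78.8% ± 1.29 (SD, n = 4) of the summed cyclase TPM. Adcy3 followed at 29.8 ± 1.38 TPM and Adcy6 at 17.9 ± 0.612 TPM. With merged exons as length, the catalytic phosphodiesterase genes together had 0.801 ± 0.0483 times the TPM of the cyclase genes. The SD of this ratio does not cover the choice of length.

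Of 20 other receptors that act on the cyclase or bind prostaglandins, 8 reached 1 TPM in every library. Gpr65, a proton-sensing receptor, was at 36.7 ± 3.62 TPM (SD, n = 4), Gpr174, a lysophosphatidylserine receptor, at 22.8 ± 2.96 TPM and the adenosine receptor gene Adora2a at 21.5 ± 1.94 TPM. Ptger4 exceeded each of them in mean level. Of 6 G protein alpha subunits, 3 reached 1 TPM. The inhibitory subunit genes Gnai2 (609 ± 22.5 TPM) and Gnai3 (207 ± 16.4 TPM) and the stimulatory subunit gene Gnas (313 ± 13.0 TPM) were all abundant.

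The PKA list had 7 of 8 genes at 1 TPM in every library, led by Prkaca at 139 ± 3.60 TPM (SD, n = 4), Prkar2a at 52.3 ± 2.61 TPM and Prkacb at 49.0 ± 3.76 TPM. Of 18 anchoring proteins that tether PKA, 12 reached it, with the membrane linker gene Ezr at 453 ± 6.88 TPM, Akap8 at 129 ± 9.07 TPM and Akap13 at 77.8 ± 3.96 TPM. Akap2, picked out after its value was seen, was at 0.0783 TPM and shares 84.4% of its exon bases with Pakap on the same strand, so its level is uncertain. Among 11 other effectors and exporters 8 reached 1 TPM, with the small GTPase genes Rap1b at 378 ± 49.2 TPM and Rap1a at 100.1 ± 13.1 TPM and the cyclic nucleotide exporter gene Abcc4 at 23.9 ± 1.42 TPM. All 11 genes of the CREB list did so. The CREB relative Atf1 was at 82.3 ± 9.06 TPM, the coactivator Crtc2 at 76.8 ± 2.44 TPM and the kinase Rps6ka3 at 57.4 ± 10.7 TPM. With merged exons as length, Atf1 thus exceeded both Creb1 and Crem in mean level. That order depends on the length, since Creb1 had more counts than Atf1 in every library, 14209 against 8201 in replicate 1. Merged exons cover 13742 bases of Creb1 and 3060 of Atf1, and no level of Atf1 with the longest transcript is given here.

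Phosphodiesterase genes outside the members reached 1 TPM in 4 of 18 cases, Pde6d, Pde1b, Pde8a and Pde4c. Pde6d, whose product binds prenylated proteins and is no enzyme, was at 48.6 ± 2.42 TPM (SD, n = 4), Pde1b at 22.2 ± 2.13 TPM and Pde8a at 14.2 ± 0.249 TPM. Of 8 genes that make or remove prostaglandin E2, 4 reached 1 TPM, with Ptges3 at 174 ± 26.0 TPM, Cbr1 at 60.8 ± 4.31 TPM and Ptges2 at 14.4 ± 2.52 TPM. Ptges3 is also a cochaperone of Hsp90. Ptgs2, the inducible cyclooxygenase that starts prostaglandin synthesis, was at 0.142 TPM, and Hpgd, the dehydrogenase that inactivates prostaglandin E2, had 0 counts in all 4 libraries. Both were picked out after their values were seen.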

How the data were processed

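The deposited values are raw counts of fragments per gene. Per the file headers, the authors counted fragments with both ends mapped, reverse-stranded (setting 2), against GENCODE M13 on mm10, using featureCounts 1.4.6-p4. An aligner version is not given in the sources used here. Each count table also holds merged exon lengths, from which TPM was computed. Total RNA-seq is the assay label, while the linked library protocol selects poly(A) RNA. Symbols matched 50376 of 50600 identifiers by gene identifier without version.

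Genes, lists and pairs were chosen with earlier results of these data known. Named genes were the members, the pairs, the 3 highest genes of each list and the genes of the regulatory T cell list. Other genes were picked after their values were seen. Pairs were tested with an exact sign-flip test, and spread with edgeR 4.0.16 in R 4.3.3 (TMM, filterByExpr, intercept only, robust prior, dispersion over the trended prior), checked on simulated data. P-values measure only the spread between these libraries, which may be technical. Alternatives used DESeq2 1.42.0, limma 3.58.1, other pseudocounts, scalings, filters and thresholds, and each replicate left out. Plots used matplotlib 3.10.9 in Python 3.11.15.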

Additional observations from a re-analysis of the deposited data

Results flagged for a closer look

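A library far from the others was looked for in 120 sets of 4 values, those of the 10 members, 76 other pathway genes (the 73 that passed the filter, Ptgs2, Pde3a and Pde7b), 15 cell type markers, 10 pairs and 9 shares. Such a library was found in 9 of them, and in none of the members, pairs or shares. Chance gives about 1 in 20 for a single set. The sets here are not independent, since pairs and shares reuse the same genes, so no excess over chance can be read from the 9. Ptgs2, 1 of them, was picked after its value was seen and rests on 15, 30, 4 and 5 counts in replicates 1 to 4. The gap to the nearest library is given as a part of the whole range. Replicate 2 was the high library for Gpr174 (27.2 TPM, at most 21.7 TPM in the others, gap 0.890), Gnai3 (231 TPM, at most 201 TPM, gap 0.837), Prkar2b (2.58 TPM, at most 2.05 TPM, gap 0.892), Akap17b (4.22 TPM, at most 2.93 TPM, gap 0.913) and Ptgs2 (0.362 TPM, at most 0.0916 TPM, gap 0.839). It was the low library for Prkar1b (1.09 TPM, at least 1.42 TPM in the others, gap 0.873), which shares 8.95% of its exon bases with Gm15672. Replicate 3 was high for Ptgs1 (8.16 TPM, at most 5.19 TPM, gap 0.920), which encodes the constitutive cyclooxygenase, and low for the anchoring protein gene Akap1 (47.8 TPM, at least 51.1 TPM, gap 0.853). Replicate 4 was low for the PKA inhibitor gene Pkib (4.54 TPM, at least 5.27 TPM, gap 0.984).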

How the results depend on the processing

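No pairing of samples between groups was possible because the labels give 1 group. Of the 10 gene pairs, 8 kept their direction under every alternative run. With the longest annotated transcript as length, Pde3b minus Pde4b was -0.20 and Pde4a minus Pde4b -0.53 on the log2 scale. Leaving out 1 replicate, Pde4a minus Pde4b lay between -0.042 (without replicate 2) and 0.12. With that length the shares were 44.3% for Pde7a, 36.2% for PDE4 genes, 88.3% for Prkar1a among regulatory subunits and 91.8% for Ptger4 among prostaglandin E2 receptors, by construction of the length alone. Genes called for spread numbered 98 of 23106 without a filter, 5 with a minimum of 50 counts in all, 43 of 13625 as DESeq2 dispersion outliers and 1 to 18 when a replicate was left out (2 without replicate 1, 18 without replicate 2), and 1 otherwise. The cause was not tested. No member was among them under any of these settings. The number of pathway genes at 1 TPM in every library was 61, and its alternatives stayed within 1.5 times. Leaving out a replicate moved the mean level of Pde2a between 0.0253 and 0.0526 TPM, since it rests on 26 counts.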
